A study of Mus musculus with 12 samples.

Results

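Mouse hippocampal neurons in primary culture were compared between 12 and 15 days in vitro (DIV), the last step of a time course that began at plating. The comparison takes 4 of the 12 arrays of the series, 1 at each of these times from each of 2 replicate cultures, and all 20358 genes that had a value. Each gene value is on the log2 scale, where 1 unit is a factor of 2, and each difference is 15 DIV minus 12 DIV. The question was what still moves at this stage and what has reached a plateau, culture by culture.

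Both groups are hippocampal cells of RjOrl:SWISS mouse embryos taken no later than embryonic day 18.5, with no experimental treatment, and culture age is the one labelled difference between them. As part of the culture protocol all received 1 µM cytosine arabinoside, an inhibitor of DNA synthesis that holds back dividing cells, at 3 DIV, and part of the medium was renewed every 4 to 5 days. The labels call the cultures replicate 1 and replicate 2, here culture 1 and culture 2, and the methods describe them as independent replicas. Each error rests on the spread that remains between these 2 cultures once time and culture are fitted over all arrays of the series. This spread is pooled over all times, with 5 residual degrees of freedom, and a variance prior over all genes adds 5.69. The errors thus do not come from the late arrays alone. The cells were not sorted, and in such bulk RNA fewer cells of a type and less RNA per cell cannot be told apart.

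By 12 DIV such neurons have grown axons and dendrites and formed synapses. The days that follow are known as a time of synapse maturation, in which the postsynaptic density fills with scaffold proteins, NMDA receptors gain the GluN2A subunit, and genes of migrating and growing neurons are turned down. Spontaneous firing of the network drives activity-regulated genes through calcium, cyclic AMP and the factor CREB, and shortage of amino acids or stress of the endoplasmic reticulum drives another group through the factor ATF4. Astrocytes and oligodendrocyte precursors, which also come from the embryonic hippocampus, mature alongside the neurons.

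Neuronal markers were high on all arrays. The synaptic proteins *Snap25* (11.48 to 11.84) and *Syp* (11.62 to 12.30), the dendritic microtubule protein *Map2* (11.23 to 11.78) and the neuronal tubulin *Tubb3* (12.14 to 12.66) were far above the median gene (7.53) on all 4 arrays. Of the other cell types, the 20 astrocyte markers had a mean of 9.24 to 10.13 over the 4 arrays and the 19 oligodendrocyte lineage markers one of 7.33 to 7.84, while the microglia (6.21 to 6.36) and endothelial and mural (6.17 to 6.35) markers lay below the median gene. The oligodendrocyte signal was that of precursors, with *Pdgfra* at 10.31 to 11.04, whereas the myelin genes *Mag* and *Mog* were at 5.56 to 6.63.

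One array stood apart. The 12 DIV array of culture 1 correlated with the other arrays of 6, 12 and 15 DIV at r = 0.931 to 0.954 across genes, against 0.956 to 0.991 among those arrays, and the 2 arrays of 12 DIV differed from each other more (SD over genes 0.639) than the pair of any other time (0.374 to 0.516). Results are therefore given for each culture, and with this array left out. The errors of the fit pool all times, so they do not carry the larger spread at 12 DIV in full.

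No gene passed the test between 12 and 15 DIV. At an adjusted p under 0.05 (limma, Benjamini-Hochberg over all genes) 0 genes were higher (0% of those tested) and 0 were lower (0%), and the smallest adjusted p was 0.911. At an unadjusted p under 0.05 limma listed 919 genes (4.51%), 482 of them higher (2.37%) and 437 lower (2.15%). The count of 0 stayed under each alternative except when the 12 DIV array of culture 2 was left out, which puts the 12 DIV array of culture 1 alone in its group and gave 294 higher and 546 lower. Without the 12 DIV array of culture 1 itself, 0 genes passed and 397 were listed at an unadjusted p under 0.05.

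A missed threshold does not show that a gene stayed, so the interval of each difference was read as well. The 95% confidence interval lay within 0.5 of 0 for 2528 genes (12.4%) and within 1 for 17212 (84.5%), at a median half-width of 0.50. The count within 0.5 depends on the processing, since the main values use the 50% of probesets with the largest interquartile range. With all probesets it was 9663, without the replicate block 768, and with the 12 and 15 DIV arrays alone 0. The number within 0.5 was 0 to 2899 when single arrays were left out. With the 12 DIV array of culture 1 left out it was 463, and with either 15 DIV array left out it was 0.

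The cultures did not take the same step. In culture 1 the differences had an SD over genes of 0.562, and 1479 genes (7.27%) differed by over 1. In culture 2 the SD was 0.257, the smallest of any step in either culture, and 90 genes (0.442%) differed by over 1, with r = 0.991 between its 2 arrays. Across genes the differences of the 2 cultures correlated at r = -0.09, a description over genes of 4 arrays. Of all genes, 4916 (24.1%) were higher in both cultures, 4734 (23.3%) lower in both, 5333 (26.2%) higher in culture 1 and lower in culture 2, and 5373 (26.4%) the reverse. Within 0.25 in both cultures were 6238 genes (30.6%), whereas 97 (0.476%) were higher by over 0.5 in both and 89 (0.437%) lower by over 0.5 in both. By over 0.5 in opposite ways went 176 genes higher in culture 1 (0.865%) and 136 lower in culture 1 (0.668%).

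**Figure D1:**
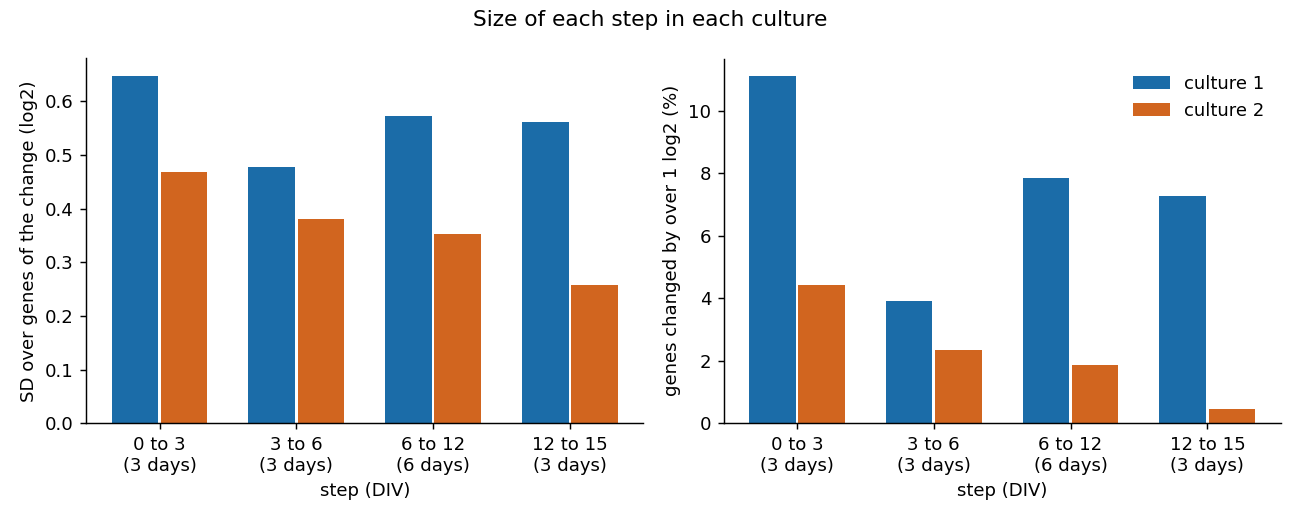
Size of the steps between sampled times, with the SD over 20358 genes of the log2 difference on the left and the percent of genes that differed by over 1 on the right. Bars are 1 culture each. The step from 12 to 15 DIV was the smallest of culture 2 (0.257) but not of culture 1 (0.562, against 0.478 from 3 to 6 DIV).

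Equal windows allow the pace to be compared. From 0 to 3 DIV limma called 938 genes higher (4.61%) and 279 lower (1.37%), from 3 to 6 DIV 10 higher and 9 lower (0.0491% and 0.0442%), and in the last 3 days none. The SD over genes of the fitted difference, which averages the cultures, was 0.496, 0.346 and 0.298 in these windows. Within culture 1 it was 0.647, 0.478 and 0.562, and within culture 2 0.468, 0.381 and 0.257. A steady decrease was therefore seen in culture 2 and not in culture 1. The last window of culture 1 includes the 12 DIV array that stood apart. Its step from 6 to 12 DIV, which shares that array, had an SD of 0.573, against 0.352 in culture 2. The part of that array in the pace of culture 1 was not tested. The earlier windows share no array with the last one, so the difference of pace was tested in the same fit. For 30 genes (0.147%) the late difference was above that of 0 to 3 DIV and for 91 (0.447%) below it, while against 3 to 6 DIV the count was 0 each way (1130 genes at an unadjusted p under 0.05). The first counts depend on single arrays, with 0 to 194 above and 0 to 303 below when arrays were left out in turn, and they were 1 and 0 without the 15 DIV array of culture 1. Against 3 to 6 DIV, leaving out the 12 DIV array of culture 2 gave 96 above and 122 below.

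Genes called early in the course were then followed to its end. Of the 1990 genes called higher from 0 to 6 DIV (9.78%), 0 were called higher from 12 to 15 DIV (35 without the 12 DIV array of culture 2), and their median late difference was 0.03 (0.09 in culture 1, -0.02 in culture 2, -0.05 without the 12 DIV array of culture 1). For the 784 genes called lower by 6 DIV (3.85%) the median was 0.00 and 0 were called lower (32 without the 12 DIV array of culture 2). An interval within 0.5 was held by 295 of the 1990 genes (14.8%) and 122 of the 784 (15.6%), beside 12.4% of all genes. Of the 1166 called higher by 1 or more, 94 (8.06%) had such an interval. Of the 377 called lower by 1 or more, 36 (9.55%) had one. The share was thus above that of all genes for the full classes and below it for the larger early changes. Class and interval rest on the same pooled spread, which favours genes with a small error in both, so these shares are a description. Of the genes above the median level, 18.2% had such an interval.

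*Adap1*, which binds inositol phosphates and acts on ARF GTPases, had the largest early gain of the named plateau genes. It had gained 2.41 by 6 DIV and stood at 11.22 and 11.20 in culture 1 and at 11.45 and 11.48 in culture 2 at 12 and 15 DIV, a difference of 0.01 (95% interval -0.39 to 0.41). The adhesion molecule *Negr1* had gained 1.35 and then gave 11.05 and 11.02 in culture 1 and 11.10 and 11.09 in culture 2. The reelin receptor *Lrp8*, 1.04 lower by 6 DIV, gave 9.67 and 9.56 in culture 1 and 9.72 and 9.81 in culture 2. The Wnt receptor *Fzd1*, 1.41 lower by 6 DIV, gave 8.26 and 8.27 in culture 1 and 8.75 and 8.79 in culture 2. The plateau genes were picked for an early change of 1 or more and the narrowest late interval around 0. A late step that is small beside the early change therefore follows from that choice. The other named plateau genes (*Kifc3*, *Magee1*, *Pdxk-ps*, *Peg3*, *Dtd1*, *Rnf208*, *Tesk2* and *Sun2*) had differences from -0.02 to 0.03. Some of these average opposite steps, such as 0.17 and -0.19 in the cultures for *Rnf208*, -0.13 and 0.15 for *Sun2* and -0.12 and 0.13 for *Peg3*. With all probesets *Rnf208* had 0.30 (0.88 in culture 1, -0.28 in culture 2) and *Kifc3* 0.19 (0.43 in culture 1, -0.04 in culture 2).

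**Figure D2:**
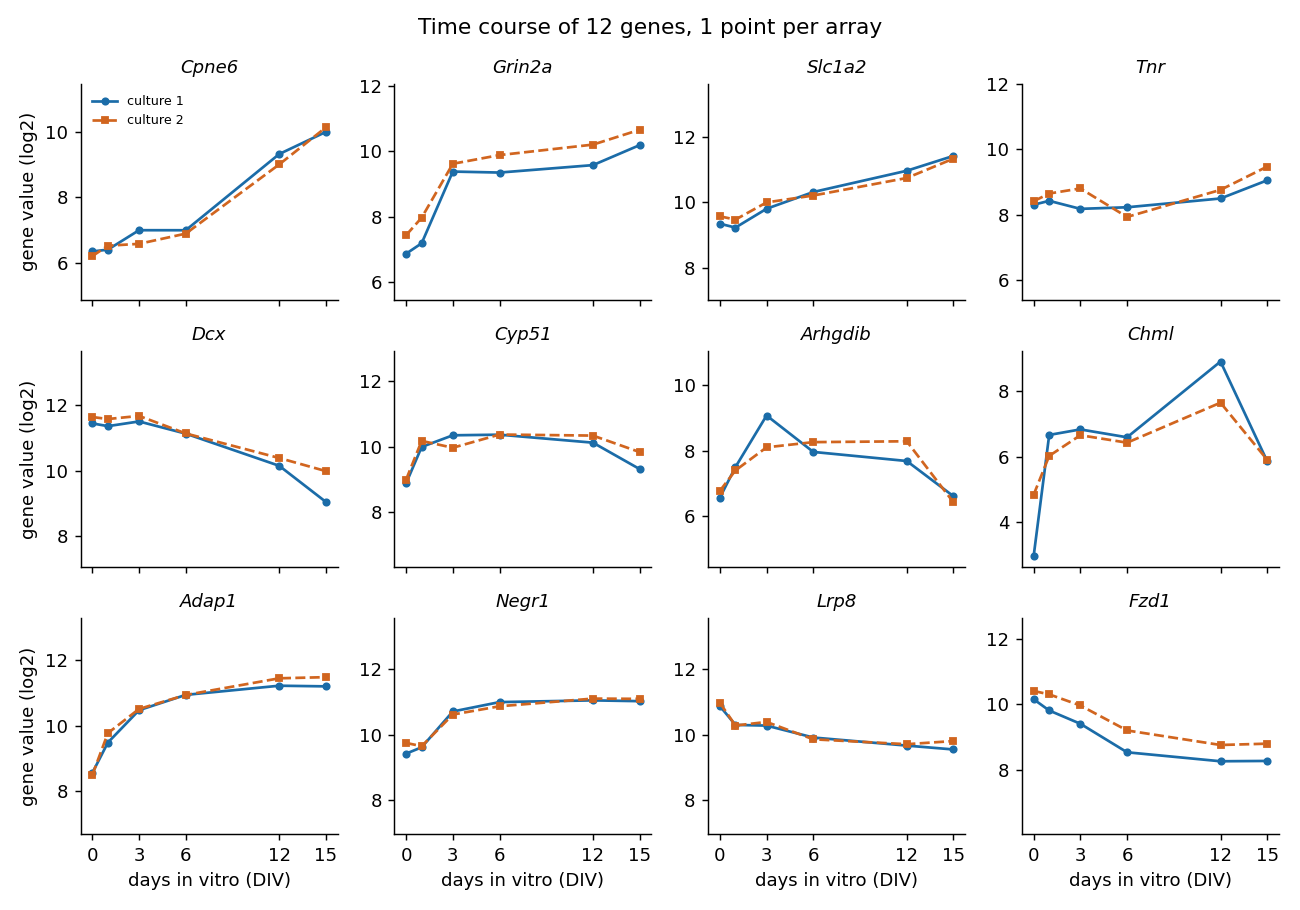
Gene values (log2) on all 12 arrays against days in vitro for 12 genes, with 1 line per culture and the same span on each vertical axis. The upper row was higher at 15 than at 12 DIV in both cultures, the middle row was lower at 15 DIV in both, and the lower row was level, with late differences from -0.02 to 0.03.

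The genes with the smallest p that moved one way in both cultures are described by value, since none passed. *Cpne6*, a copine that binds calcium and membranes and is known from the spines of hippocampal neurons, stood at 9.31 and 9.99 in culture 1 and at 9.00 and 10.13 in culture 2. Both 15 DIV arrays were above both 12 DIV arrays, and the difference was 0.90 (SE 0.20, 9 of 9 probesets used higher, 1.02 without the 12 DIV array of culture 1). It had been at 6.99 and 6.88 at 6 DIV, so each later array of a culture was above the one before. Here and below, the share of all genes whose 12 and 15 DIV arrays separate without overlap was not counted. Of all genes, 24.1% were higher and 23.3% lower in both cultures. *C1ql1*, a secreted synapse organiser of the C1q family, gave 8.26 and 9.01 in culture 1 and 7.81 and 8.46 in culture 2, a difference of 0.70 (SE 0.18, 0.42 with all probesets). *Mchr1*, the receptor of melanin-concentrating hormone, gave 6.90 and 8.02 in culture 1 and 7.48 and 8.20 in culture 2, a difference of 0.92 (SE 0.21). The receptor *Vipr1* for vasoactive intestinal peptide differed by 0.89 (SE 0.21, 0.51 with all probesets).

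Of the 15 leading genes with higher values, 10 lay below the median gene level, as did all 15 of those with lower values. Several dim ones shrank when all probesets were used, such as the keratin *Krt16* (0.94, and 0.41 with all), *Klra5* (0.82 and 0.13), *Nectin4* (0.99 and 0.38) and the muscle protein *Smpx* (-1.32 and -0.12). The remaining leading genes with higher values were *1700001J11Rik*, *Lamc3*, *Osr1*, *Nat2*, *Gm13294*, *Ak3l1*, *Guca1a* and *1700055D18Rik*, at 0.63 to 1.48. Without the 12 DIV array of culture 1 *Guca1a* went from 1.35 to 0.61 and *Gm13294* from 1.48 to 0.98.

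Among the lower ones, *Arhgdib*, a gene best known from blood cells, gave 7.68 and 6.61 in culture 1 and 8.28 and 6.42 in culture 2. Both 15 DIV arrays were below both 12 DIV arrays, with a difference of -1.47 (SE 0.31, -1.85 without the 12 DIV array of culture 1, 0 of 3 probesets used higher). *Chml*, a Rab escort protein that helps to prenylate Rab GTPases, gave 8.91 and 5.86 in culture 1 and 7.65 and 5.91 in culture 2, a difference of -2.40 (SE 0.54) that rests on 1 of 2 probesets (-1.38 with both). At 3 DIV *Arhgdib* was 1.92 and *Chml* 2.85 above 0 DIV. The others were *Xlr5a*, *Lilr4b*, *Efhc2*, *Reg3a*, *Trim16*, *4921507P07Rik*, *Ccnyl1*, *Serpini2*, *Glipr1l1*, *Mettl7a3*, *Cntln* and *Ffar4*, at -2.21 to -0.85. Without the 12 DIV array of culture 1 *Lilr4b* went from -2.21 to -1.44, *Reg3a* from -1.20 to -0.78, *Serpini2* from -1.05 to -0.62, *Mettl7a3* from -1.04 to -0.58 and *Cntln* from -0.85 to -0.57.

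Over 0.5 in both cultures and at an unadjusted p under 0.05 were 145 genes, 81 higher and 64 lower, of which 32 lay above the median level. A few of these, chosen after their values were seen, are genes of neuronal signalling. *Slc30a3*, the zinc transporter of glutamatergic vesicles, gave 8.21 and 8.84 in culture 1 and 7.57 and 8.38 in culture 2. *Camk2n1*, an inhibitor of the kinase CaMKII, gave 10.53 and 11.28 in culture 1 and 10.08 and 10.59 in culture 2. The muscarinic receptor *Chrm1* gave 9.58 and 10.33 in culture 1 and 9.78 and 10.29 in culture 2, and the secreted cerebellin *Cbln4* 8.37 and 9.57 in culture 1 and 7.23 and 7.94 in culture 2. Both 15 DIV arrays were above both 12 DIV arrays for each of these genes except *Cbln4*, whose cultures stood further apart than the step. On the low side was *Kif18a*, a mitotic kinesin, with 8.00 and 6.99 in culture 1 and 8.11 and 7.43 in culture 2.

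Lists of astrocytes and of the oligodendrocyte lineage were above 0 in both cultures, and that of microglia below 0 in both. The oligodendrocyte lineage had a median difference of 0.26 (0.13 in culture 1, 0.31 in culture 2, 0.28 without the 12 DIV array of culture 1), beside 0.00 over all genes. Of its 19 members, 13 (68.4%) were higher in both cultures and 1 was lower in both, beside 24.1% and 23.3% of all genes, and 0 passed the test. *Lhfpl3*, a membrane protein of precursors, gave 10.76 and 11.12 in culture 1 and 10.30 and 10.84 in culture 2. *Sox10*, the lineage's transcription factor, gave 8.64 and 9.03 in culture 1 and 7.86 and 8.33 in culture 2. *Gpr17*, a receptor of precursors that have begun to differentiate, gave 6.64 and 7.15 in culture 1 and 5.88 and 7.26 in culture 2, a difference of 0.94 (SE 0.30) that was 0.20 with both of its probesets. *Mog*, a myelin protein, differed by 0.72 (SE 0.22), by 0.37 without the 12 DIV array of culture 1 and by 0.23 with all probesets. Its means were 6.76, 6.89 and 6.65 at 0, 3 and 6 DIV, 5.86 at 12 DIV and 6.58 at 15 DIV. The value at 15 DIV was thus not above the early ones.

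The 20 astrocyte markers had a median of 0.24 (0.16 in culture 1, 0.31 in culture 2, 0.34 without the array), with 13 (65%) higher in both cultures and 0 lower in both. The glutamate transporter *Slc1a2* gave 10.96 and 11.42 in culture 1 and 10.74 and 11.33 in culture 2, a difference of 0.52 (SE 0.19), and both 15 DIV arrays were above both 12 DIV arrays. Glutamine synthetase, *Glul*, differed by 0.48 (SE 0.24). The gap junction gene *Gja1* and *S100b* went opposite ways, lower by 0.63 and 0.96 in culture 1 and higher by 0.53 and 0.69 in culture 2, and for both genes the cultures stood apart by more than the step. Microglial markers had a median of -0.07 (-0.17 in culture 1, -0.04 in culture 2, 0.01 without the array) and endothelial ones of -0.07 (0.14 without the array). *Tmem119*, a microglial gene, was at 4.97 on the 12 DIV array of culture 1 but at 7.86 to 8.03 on the other 3, so its difference of 1.51 was 0.24 without that array.

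Synaptic genes came next. The 23 genes of the postsynaptic density had a median of 0.19 (0.14 in culture 1, 0.24 in culture 2, 0.12 without the array), with 15 (65.2%) higher in both cultures and 0 lower in both. *Dlgap1*, a scaffold that ties PSD-95 to Shank, gave 10.16 and 10.75 in culture 1 and 10.54 and 10.85 in culture 2, and the kinase subunit *Camk2a* gave 11.76 and 11.85 in culture 1 and 11.76 and 12.47 in culture 2. Of the 21 genes of vesicles and release 14 (66.7%) were higher in both, at a median of 0.22, which was 0.27 in culture 1, 0.07 in culture 2 and 0.05 without the array. The median depended on that array, while *Sv2b*, a vesicle glycoprotein, differed by 0.54 (SE 0.30) and by 0.54 without it. All 10179 genes above the median level together had medians of 0.08 in culture 1 and -0.03 in culture 2, and 23.8% of them were higher in both.

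The vesicular glutamate transporters went opposite ways in both cultures. *Slc17a7* (VGLUT1), the one of mature hippocampal neurons, gave 11.35 and 11.79 in culture 1 and 11.76 and 12.18 in culture 2, a difference of 0.43 (SE 0.19). *Slc17a6* (VGLUT2), the one of immature hippocampal neurons, gave 8.60 and 8.04 in culture 1 and 8.39 and 7.92 in culture 2, a difference of -0.51 (SE 0.21), and its 15 DIV arrays were both below its 12 DIV arrays. *Slc17a7* was picked beside it after the values were seen.

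Among 23 genes of ionotropic glutamate receptors and their partners the median was 0.12 (0.09 and 0.19 in the cultures, 0.13 without the array), and 13 (56.5%) were higher in both. *Grin2a*, the GluN2A subunit that marks mature NMDA receptors, gave 9.58 and 10.19 in culture 1 and 10.20 and 10.66 in culture 2, a difference of 0.53 (SE 0.19), with 5 of 5 probesets used higher. At 3 DIV it was already 2.34 above 0 DIV, and the late difference was below that by 1.81 (adjusted p = 0.0342, limma). Single arrays decide calls of this kind. The gene was also named for its late difference, so the value is a description. The AMPA receptor partner *Cacng3* differed by 0.71 (SE 0.43, 1.17 without the array), and its cultures were further apart than the step. The inhibitory synapse list had a median of -0.03 (-0.11 to 0.15 over the alternatives), with 5 of 20 members higher and 5 lower in both, and 3 (15%) with an interval within 0.5. *Glra2*, the fetal glycine receptor subunit, gave 8.08 and 7.76 in culture 1 and 8.82 and 7.76 in culture 2, and *Gabra5* differed by 0.50, or 0.08 without the array.

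At the axon initial segment and node, 14 of 21 genes (66.7%) were higher in both cultures and 1 was lower in both, at a median of 0.14 (0.04 without the array). *Cntnap1*, the paranodal Caspr, gave 9.06 and 9.78 in culture 1 and 9.77 and 10.31 in culture 2, a difference of 0.63 (SE 0.26) that was 0.37 without the array. Of the brain matrix genes *Tnr*, the tenascin of perineuronal nets, gave 8.50 and 9.06 in culture 1 and 8.77 and 9.48 in culture 2, a difference of 0.63 (SE 0.22) and 0.61 without the array. It had been at 8.23 and 7.94 at 6 DIV, and its 15 DIV arrays were both above its 12 DIV arrays.

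Genes of young neurons lay lower. In the list of immature neurons and neurite growth, 12 of 24 members (50%) were lower in both cultures and 5 higher in both, at a median of -0.12 (-0.24 in culture 1, -0.11 in culture 2, -0.16 without the array). *Dcx*, the microtubule protein of migrating neurons, gave 10.15 and 9.04 in culture 1 and 10.38 and 9.98 in culture 2, a difference of -0.75 (SE 0.23), and -0.72 without the array. *Sox11*, a transcription factor of new neurons, gave 10.45 and 9.69 in culture 1 and 10.18 and 9.88 in culture 2. For both genes the arrays of 15 DIV were below those of 12 DIV without overlap, a separation that was not counted over all genes. In the list of glutamatergic and hippocampal identity 8 of 18 (44.4%) were lower in both, at a median of -0.16, and *Neurod1*, which drives neuronal differentiation, gave 9.48 and 8.60 in culture 1 and 8.89 and 8.48 in culture 2. That median was 0.15 when the 15 DIV array of culture 1 was left out.

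Cholesterol synthesis genes had a median of -0.22 (-0.27 in culture 1, -0.15 in culture 2, -0.16 without the array), with 11 of 20 genes (55%) lower in both and 1 higher in both. *Cyp51*, the sterol demethylase, gave 10.12 and 9.31 in culture 1 and 10.34 and 9.83 in culture 2, a difference of -0.66 (SE 0.22, -0.40 with all probesets). At 3 DIV it was 1.22 above 0 DIV. *Hsd17b7*, a sterol reductase named here after its values were seen, gave 10.69 and 9.77 in culture 1 and 10.69 and 10.39 in culture 2. The pathway's regulator *Srebf2* was at 9.98 and 10.36 in culture 1 and 10.49 and 10.52 in culture 2.

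**Figure D3:**
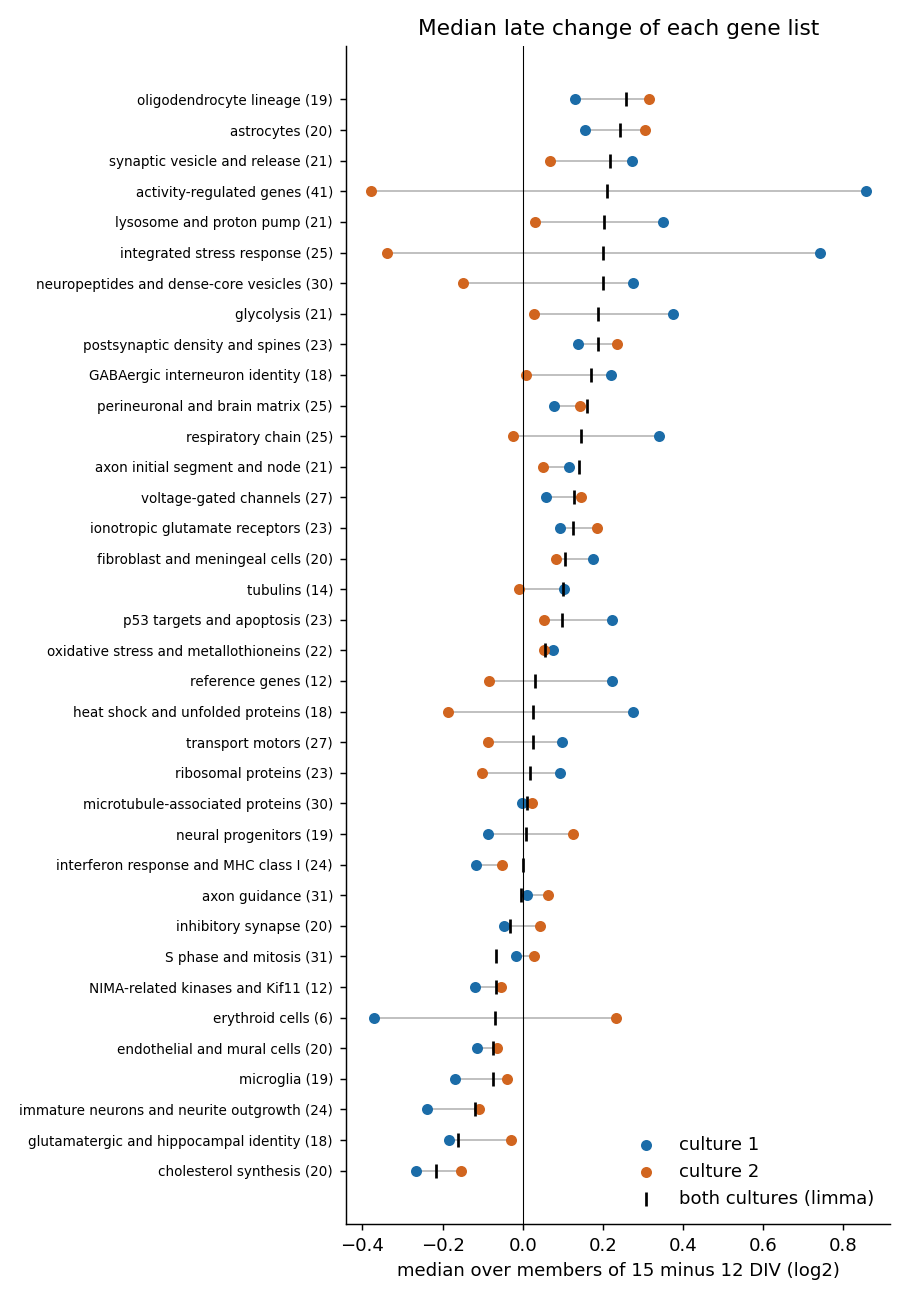
Median over the members of each of 36 gene lists of the log2 difference between 15 and 12 DIV, in culture 1, in culture 2 and in the fit of both, with the number of members in parentheses. Astrocyte, oligodendrocyte and postsynaptic lists were above 0 and cholesterol synthesis and immature neuron lists below 0 in both cultures, while activity-regulated genes (0.86 and -0.38) and the integrated stress response (0.74 and -0.34) were on opposite sides.

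Activity-regulated genes had opposite differences in the cultures. Their mean over 41 genes went from 7.97 to 8.92 in culture 1 and from 8.68 to 8.18 in culture 2. The median difference was 0.86 in culture 1 and -0.38 in culture 2, and 31 members were higher in culture 1 and lower in culture 2, beside 26.2% of all genes. The median in the fit of both cultures, 0.21, averages opposite values, and it was -0.04 without the 12 DIV array of culture 1. On the arrays of 0 to 6 DIV the mean of the list was 7.77 to 8.37 in culture 1 and 8.44 to 8.67 in culture 2. The 12 DIV array of culture 1 was the lowest of the 4 late arrays for this list, and its part in the result was not tested. The difference of culture 2 does not include that array, whereas the difference of culture 1 does.

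*Fos*, the immediate early transcription factor, gave 8.02 and 9.27 in culture 1 and 10.15 and 7.59 in culture 2. *Npas4*, which neurons induce on calcium entry, gave 6.29 and 8.57 in culture 1 and 9.84 and 7.09 in culture 2. *Nr4a1* gave 8.12 and 10.05 in culture 1 and 10.02 and 8.80 in culture 2. All 3 are early-response transcription factors, and for each the high arrays were 15 DIV of culture 1 and 12 DIV of culture 2. *Dusp6*, a phosphatase that limits ERK signalling, gave 7.51 and 9.53 in culture 1 and 9.78 and 8.65 in culture 2, and the secreted *Vgf* gave 10.12 and 11.52 in culture 1 and 10.99 and 9.80 in culture 2. The neurotrophin *Bdnf* gave 7.47 and 8.78 in culture 1 and 8.73 and 8.10 in culture 2. Of the other 10 members, 7 were higher in both cultures, 2 lower in both and 1 lower in culture 1 and higher in culture 2. Among the 7 were *Egr3* (8.14 and 9.32, 8.23 and 9.05, but 0.32 with all probesets), and *Ptgs2*, the inducible cyclooxygenase (7.46 and 10.33, 9.00 and 9.26).

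The integrated stress response, the ATF4 programme, had the same shape. The mean of its 25 genes went from 8.63 to 9.35 in culture 1 and from 9.02 to 8.64 in culture 2, with medians of 0.74 and -0.34 (0.05 without the array), and 21 members were higher in culture 1 and lower in culture 2. *Chac1*, a glutathione-degrading enzyme, gave 7.31 and 9.09 in culture 1 and 8.42 and 7.96 in culture 2. *Ddit3*, the factor CHOP, gave 9.66 and 10.58 in culture 1 and 9.83 and 9.01 in culture 2. *Sesn2*, a stress sensor, gave 9.00 and 10.13 in culture 1 and 9.48 and 9.38 in culture 2. *Nupr1* was higher in both (7.67 and 8.81, 7.58 and 7.75).

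Whether the difference between cultures exceeded the spread was tested with a contrast chosen after seeing the data. It used the residual spread of the other times, since each culture has 1 array per time. It called 2 genes (0.00982%) of 20358, with 2358 (11.6%) at an unadjusted p under 0.05, and none of the activity-regulated or stress genes named above. Their lowest adjusted p was that of *Dusp6* (0.112, limma), and *Npas4* had 0.167 and *Fos* 0.213. The 2 genes were *Adm* (adjusted p = 0.0330, limma), the vasodilator peptide adrenomedullin, with 6.00 and 9.37 in culture 1 and 7.40 and 6.90 in culture 2, and *Crisp1* (adjusted p = 0.0140, limma), a secreted protein of the epididymis, with 4.12 and 5.43 in culture 1 and 6.68 and 3.89 in culture 2. Leaving out arrays of other times left 0 to 4 genes.

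**Figure D4:**
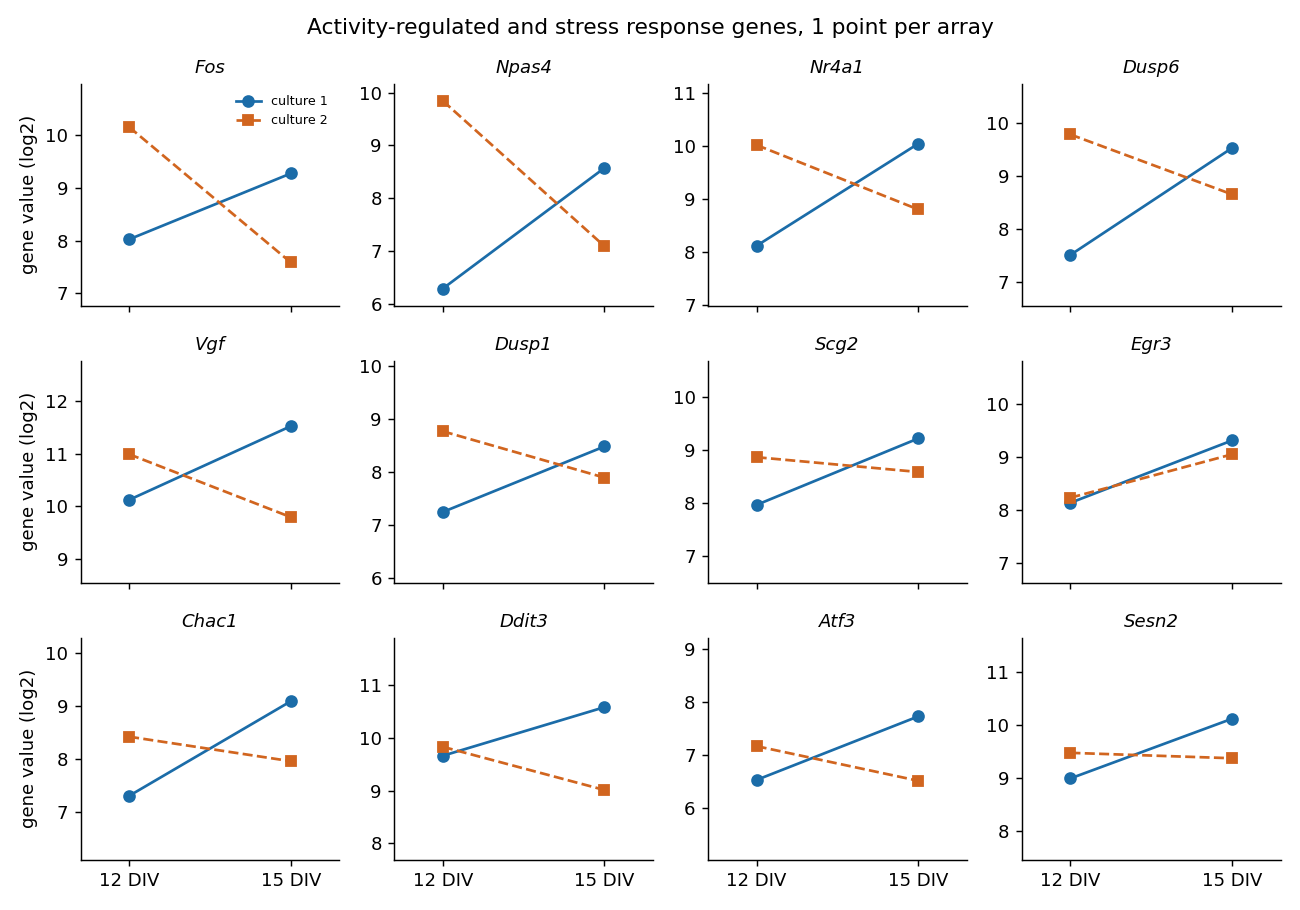
Gene values (log2) at 12 and 15 DIV of 12 activity-regulated or stress response genes, with 1 point per array, 1 line per culture and the same span on each vertical axis. In 11 of the 12 genes culture 1 was higher and culture 2 lower at 15 DIV, and in *Egr3* both were higher.

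**Figure D5:**
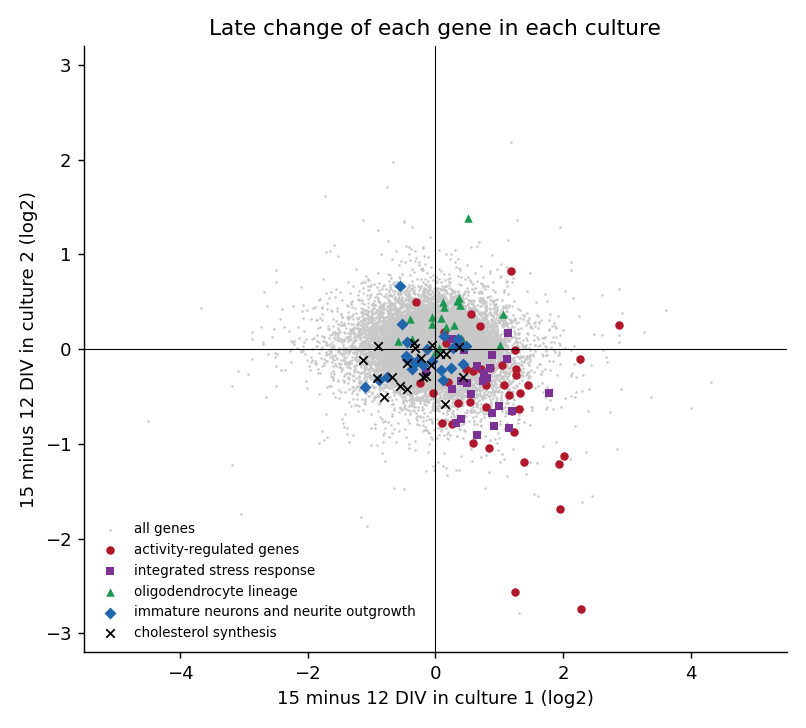
Difference between 15 and 12 DIV (log2) in culture 1 on the horizontal axis and in culture 2 on the vertical axis for 20358 genes, with the members of 5 lists marked. The cloud is wider along culture 1 (SD 0.562) than culture 2 (SD 0.257), and most activity-regulated and stress response genes lie at the lower right.

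The promoters of these opposing genes are shown because members of each list moved together within a culture. From RefSeq, GRCm38.p6, 300 bases around each start site (250 before and 50 after) were searched on both strands for 2 motifs, neither of which contains the other. TGACGTCA, the cyclic AMP response element that CREB binds, was in 6 of 46 promoters (13%) of the activity-regulated genes, in 1 of 25 (4%) of the stress genes and in 588 of 32851 (1.79%) of all promoters. TTGCATCA, the C/EBP-ATF response element, was in 5 of 25 promoters (20%) of the stress genes, in 2 of 46 (4.35%) of the activity-regulated genes and in 294 of 32851 (0.895%) of all. These promoters stood for 32 genes of the first list and 21 of the second. A match is a description of letters and not a binding site. For each list the 2 matching genes whose cultures differed most are printed 5′ to 3′ in the sense of the gene, with the motif in capitals. *Dusp1*, a phosphatase of the MAP kinases, is at chr17:26508423-26508722 (minus strand), and *Scg2*, a granin of dense-core vesicles, at chr1:79439977-79440276 (minus strand). *Chac1* is at chr2:119350992-119351291 (plus strand) and *Atf3*, a transcription factor in both lists, at chr1:191183284-191183583 (minus strand).
Dusp1: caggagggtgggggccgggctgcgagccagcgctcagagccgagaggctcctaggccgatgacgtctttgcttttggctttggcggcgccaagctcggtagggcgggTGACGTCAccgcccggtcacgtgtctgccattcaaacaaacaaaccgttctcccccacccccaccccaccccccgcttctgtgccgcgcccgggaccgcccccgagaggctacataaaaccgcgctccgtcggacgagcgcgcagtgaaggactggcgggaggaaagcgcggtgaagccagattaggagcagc
Scg2: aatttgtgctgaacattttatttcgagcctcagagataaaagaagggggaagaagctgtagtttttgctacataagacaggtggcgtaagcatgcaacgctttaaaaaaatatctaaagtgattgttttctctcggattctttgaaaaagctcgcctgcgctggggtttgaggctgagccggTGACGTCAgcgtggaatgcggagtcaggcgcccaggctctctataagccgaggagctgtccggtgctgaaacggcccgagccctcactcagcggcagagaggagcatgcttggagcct
Chac1: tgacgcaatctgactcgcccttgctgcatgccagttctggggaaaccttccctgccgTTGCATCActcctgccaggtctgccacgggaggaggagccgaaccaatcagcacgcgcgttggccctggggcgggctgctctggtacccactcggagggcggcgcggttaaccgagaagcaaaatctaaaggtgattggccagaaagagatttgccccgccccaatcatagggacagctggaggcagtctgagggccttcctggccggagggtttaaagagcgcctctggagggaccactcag
Atf3: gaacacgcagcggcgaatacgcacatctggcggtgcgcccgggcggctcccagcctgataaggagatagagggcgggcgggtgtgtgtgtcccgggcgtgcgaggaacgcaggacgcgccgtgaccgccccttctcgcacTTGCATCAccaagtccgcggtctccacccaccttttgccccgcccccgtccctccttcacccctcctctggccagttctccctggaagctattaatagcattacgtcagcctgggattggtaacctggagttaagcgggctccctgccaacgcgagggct

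These genes were printed for the largest difference between the cultures, so their values are a description. *Dusp1* gave 7.24 and 8.48 in culture 1 and 8.77 and 7.89 in culture 2, and *Scg2* 7.97 and 9.22 in culture 1 and 8.87 and 8.59 in culture 2. *Atf3* gave 6.53 and 7.73 in culture 1 and 7.17 and 6.51 in culture 2.

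Energy and housekeeping lists also had higher medians in culture 1. Glycolysis genes had medians of 0.38 in culture 1 and 0.03 in culture 2, respiratory chain genes 0.34 and -0.02, heat shock and unfolded protein genes 0.28 and -0.19, and neuropeptides and dense-core vesicles 0.28 and -0.15. The 12 reference genes had 0.22 and -0.08. Without the 12 DIV array of culture 1 the medians of these lists were 0.14, -0.01, -0.15, -0.04 and -0.04, in the order given. All genes above the median level together had 0.08 in culture 1 and -0.03 in culture 2. *Slc2a1*, the glucose transporter, was chosen after its values were seen and gave 9.29 and 10.50 in culture 1 and 9.48 and 9.29 in culture 2. Named for the largest opposite steps were *Tomm5* (3.71 and 8.02, 8.99 and 8.64), *Chrna1* (4.57 and 8.57, 6.16 and 5.54), *Speer1* (7.78 and 4.10, 3.26 and 3.69), *Gipr* (6.82 and 9.27, 8.90 and 7.35), *Ass1* (4.24 and 7.09, 6.15 and 5.09) and *Pdlim1* (5.98 and 8.28, 9.10 and 7.49), each as 12 and 15 DIV of culture 1 and then of culture 2. For *Tomm5* and *Speer1* the 12 DIV array of culture 1 alone was far from the other 3.

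The microtubule genes that the study turned to had no called difference. *Nek7* gave 9.44 and 9.65 in culture 1 and 9.57 and 9.66 in culture 2, a difference of 0.15 (95% interval -0.35 to 0.65), and was 1.18 higher at 6 than at 0 DIV. *Nek6* (-0.02, SE 0.22) and *Nek9* (0.09, SE 0.20) went opposite ways in the cultures. *Kif11*, the motor Eg5, gave 8.38 and 7.78 in culture 1 and 8.31 and 8.27 in culture 2 (-0.32, SE 0.36, -0.58 without the array). The list of NIMA-related kinases and *Kif11* had a median of -0.07, tubulins 0.10, microtubule-associated proteins 0.01 and transport motors 0.02, each with 0 genes called. Without the 12 DIV array of culture 1 these medians were -0.27, -0.06, -0.08 and -0.08, so the signs of the last 3 lists turned. *Top2b* differed by -0.16, *Nasp* by -0.28, *Ncam2* by -0.34, *Snap25* by 0.10 and the reference gene *Actb* by 0.09, with SEs of 0.17 to 0.26. Without the array *Nek7* had -0.07, *Nek9* -0.14, *Top2b* -0.32, *Ncam2* -0.59, *Snap25* 0.19 and *Actb* -0.01.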

How the data were processed

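Expression was measured on 12 Affymetrix Mouse Gene 1.0 ST arrays, 6 times with 2 replicate cultures each. The deposited values are log2 probeset signals that the authors normalized by RMA, and the genome build is not given in the sources used here. Of 241576 probesets, 212138 had 1 gene symbol. Per gene, the 50% of probesets with the largest interquartile range were summarised by median polish, which gave 20358 genes. The 15 minus 12 DIV contrast was fitted in limma 3.58.1 (R 4.3.3) over all 12 arrays with time and replicate number as a block, with Benjamini-Hochberg adjustment over all genes. The number of arrays limits the precision.

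The methods call the arrays of a time independent replicas. Replicate numbers come from the labels, and same-numbered arrays deviated together in all 15 pairs of times (median r 0.296, lowest 0.111), so they were paired. Genes were named by rule: 15 leading genes each way by smallest p, the leading members of each list, 12 plateau genes, 8 genes opposite between cultures and 9 genes of the study. Other genes were chosen after their values were seen. The members and the 36 lists (848 entries, 793 with a value) were chosen with earlier results of these data known. The test of the difference between cultures was added after seeing the data. Alternatives were another block, probeset use, scaling, filter and variance model, and single arrays left out. The fit was also run on data simulated from its own model, with the same spread at every time. Such a run cannot check the intervals where a single array or the pair of 12 DIV deviates. Promoters are from RefSeq, GRCm38.p6.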

Additional observations from a re-analysis of the deposited data

Results flagged for a closer look

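The late difference was above that of 0 to 3 DIV for 30 genes and below it for 91, tested as the difference of the 2 steps in limma. The neurokinin B gene *Tac2* was above by 4.82 (adjusted p = 0.0126, limma), with means of 10.43 at 0 DIV, 6.07 at 3 DIV, 7.51 at 12 DIV and 7.97 at 15 DIV. *Ltbp1*, which binds latent TGF-beta, was above by 2.69. Below was *Sst* (somatostatin) at -2.35. Also below were *Grin2a* at -1.81, *Adap1* at -1.96, *Arhgdib* at -3.39, *Chml* at -5.24, *Cyp51* at -1.88 and *Pdxk-ps* at -1.38. These last genes were named for their late difference, so their values are a description. The counts were 1 above and 0 below without 0 DIV of culture 1, either 6 DIV array or 15 DIV of culture 1, 2 and 0 without 3 DIV of culture 1, and 0 and 0 without 15 DIV of culture 2.

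The late difference differed between the 2 cultures for 2 genes, tested as a contrast chosen after seeing the data. Culture 1 minus culture 2 was 3.88 for *Adm* and 4.10 for *Crisp1*.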

How the results depend on the processing

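The count of 0 genes between 12 and 15 DIV stayed 0 under every alternative except leaving out the 12 DIV array of culture 2. With single arrays left out it was 0 to 294 higher and 0 to 546 lower, the plateau count 0 to 2899, the pace against 3 to 6 DIV 0 to 96 above and 0 to 122 below, the pace against 0 to 3 DIV 0 to 194 above and 0 to 303 below, early risers still higher 0 to 35, early fallers still lower 0 to 32 and the difference between cultures 0 to 4. Without the replicate block the plateau count was 768 and the pace against 0 to 3 DIV 3 above and 5 below. With all probesets these were 9663, 113 and 256, with 22 genes differing between cultures. Quantile normalization gave 60 above, and centring on the median 1 gene between cultures. Without the dimmest genes, 1 gene was above its 3 to 6 DIV change, and 89 above and 300 below the 0 to 3 DIV change. An intensity trend gave 95, 353 and, between cultures, 32. With the 12 and 15 DIV arrays alone the plateau count was 0, and with a margin of 1 it was 17212.

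Signs turned with all probesets for *Tuba1c* (0.082), *Vip* (0.29), *Pvalb* (-0.12) and *Hbb-b1* (0.021), and with the mean of probesets for *Nasp* (0.080). With single arrays left out, differences ran from -0.044 (without 12 DIV of culture 1) to 0.63 for *Kifc2*, and in the same way from -0.022 to 0.60 for *Kif13b*, -0.19 to 1.26 for *Sptbn4*, -0.068 to 0.37 for *Nek7*, -0.14 to 0.33 for *Nek9* and -0.012 to 0.20 for *Actb*. *Hbb-b1* (-3.36 to 0.81) turned without that array too, and *Nptx1* (-0.039 to 1.21) without 12 DIV of culture 2. *Cd24a* (-1.30 to 0.10), *Atf5* (-0.11 to 0.52) and *Kif11* (-0.91 to 0.27) turned without 15 DIV of culture 1, and *Nek6* (-0.31 to 0.27) without that array or 12 DIV of culture 2 (0.052). The cause was not tested.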
